A study of Mus musculus with 6 samples.

Results

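The genes described here encode the enzymes and membrane proteins of the lysosome and the subunits of its proton pump, measured in mouse bone marrow-derived macrophages before and during a response to lipopolysaccharide (LPS), a component of the bacterial outer membrane. They were 29 chosen gene symbols together with every symbol beginning with Atp6v, of which the annotation gave 19. Of these 48 genes, 47 had at least 1 probe set annotated to that symbol alone (Cd63 was not analysed here), with 87 such probe sets in all, and the brightest of them by mean signal stood for the gene. A gene was kept when that probe set exceeded the median of its array on at least 1 of the 6 arrays, which left 43 of these genes among 7501 genes kept in all. The 4 that were not kept were Atp6v0a4, Atp6v0e2, Atp6v1b1 and Atp6v1c2, pump subunits whose highest signals on any array were 20.6, 13.5, 33.7 and 18.7. Of the 43 kept, 39 exceeded the array median on all 6 arrays, and none had a signal under 18.2, the floor to which low signals were raised.

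The series compared wild-type C57BL/6J macrophages with macrophages from C57BL/6J mice lacking IκBβ, an inhibitor protein of the transcription factor NF-κB. Bone marrow cells of both genotypes were grown for 7 days in medium with 30% L929 cell supernatant, a source of the macrophage growth factor M-CSF, and then received LPS at 1 µg/ml for 0 h, 1 h or 5 h. Each of the 6 combinations of genotype and time was measured on 1 Mouse Genome 430A 2.0 array, so single-array differences are given as values, and the labels do not say whether arrays shared animals. The tests came from a model with additive terms for genotype and time, which takes the LPS change as common to both genotypes and measures its spread only from the mismatch between them.

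The lysosome is the acidic compartment in which macrophages break down engulfed microbes, dead cells and their own worn components. Its interior is acidified by the vacuolar-type ATPase, in which a cytosolic V1 sector hydrolyses ATP and a membrane-embedded V0 sector carries protons across, and this acidity supports proteases (cathepsins), glycosidases and lipid-degrading enzymes. The transcription factor TFEB binds E-box sequences of the type CACGTG in the promoters of many of these genes and raises their transcription when it enters the nucleus.

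Nfkbib, which encodes IκBβ, read 477, 3330 and 5007 on the wild-type arrays before LPS, at 1 h and at 5 h, and 30.5, 136 and 56.1 on the knockout arrays. Array medians were 113 to 117 at 0 h, 98.7 to 105 at 1 h and 65.2 to 70.7 at 5 h, while the mean after trimming 2% from each end was 500.2 to 500.3 on all 6. The median change over all 7501 genes was therefore −0.18 at 1 h and −0.57 at 5 h on the log2 scale. All changes below are log2 differences of the deposited signals, and a gene with a change of −0.57 at 5 h moved with the median gene. All 9 macrophage markers on the array were among the genes kept, with a summed signal of 83156 to 93493, whereas no dendritic cell, T or NK cell or fibroblast marker reached 100 on any array. Of the 5 B cell markers, Cd79a, Ms4a1 and Pax5 stayed under 100 on all arrays, and the list's summed signal, most of it from Ighm, ranged from 2437 to 3698 at 0 h and 1 h and from 348 to 370 at 5 h. The 7 neutrophil markers summed to 227 to 322 at 0 h and 1 h and to 737 and 1341 at 5 h, mostly from S100a8 there, and the 6 osteoclast markers summed to 1159 to 1690. The part of these cells in the changes described here was not tested, and in bulk RNA fewer cells of a type and less RNA per cell cannot be told apart. Xist read 52.1 to 80.4 in wild type and 2149 to 5634 in knockout, and the Y-linked Eif2s3y read 570 to 860 and 0.896 to 10.7. The wild-type arrays therefore held male and the knockout arrays female RNA, and genotype and sex cannot be told apart.

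At 5 h of LPS, 26 of the 43 genes fell, 4 rose and 13 did not pass the test (limma, Benjamini-Hochberg adjusted p under 0.05 over all genes). In all 7501 genes, 54% were called lower and 19.5% higher (73.6% in either direction). At the deposited scale the share of these genes called lower was therefore near that of the array. The genes called lower include Atp6v1g2, which passed the filter only on its 0 h arrays. The median change of the 43 genes was −0.47 against −0.57 for all genes, with 20 of them below and 23 above the all-gene median. The classes of gene differed in their medians and ranges, and also in brightness. Most glycosidases, the lipid enzymes Lipa and Asah1, the activator Gm2a, the receptor Scarb2, Tfeb and the pump subunits Atp6v0a1 and Atp6v0d1 lay well below the median gene, while the cathepsins Ctsb, Ctss, Ctsz, Ctsl and Ctsd lay between −0.23 and −0.02 and Ctsc, Lamp2 and Atp6v1e1 were higher. Without the knockout array at 0 h, 17 genes were called lower and 3 higher. Centring each array on its median gave 12 lower and 14 higher, and in all genes it moved the share of calls that were higher from 26.5% to 52.5% at 5 h and from 48.0% to 62.7% at 1 h. Quantile normalization moved that share at 5 h to 39.2%. It called 26 of the 43 genes lower, against 3063 of all 7501, with medians of −0.64 and −0.23. Without the filter on dim genes 24 of 47 were called lower, against 3749 of 12394. In both settings the share called lower was above that of all genes. Without the filter the sets are not alike in brightness, since 43 of the 47 genes passed it but only 7501 of the 12394. The part of brightness in that difference was not tested. The 12 called lower with median centring stood against 2360 of 7501.

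**Figure D1:**
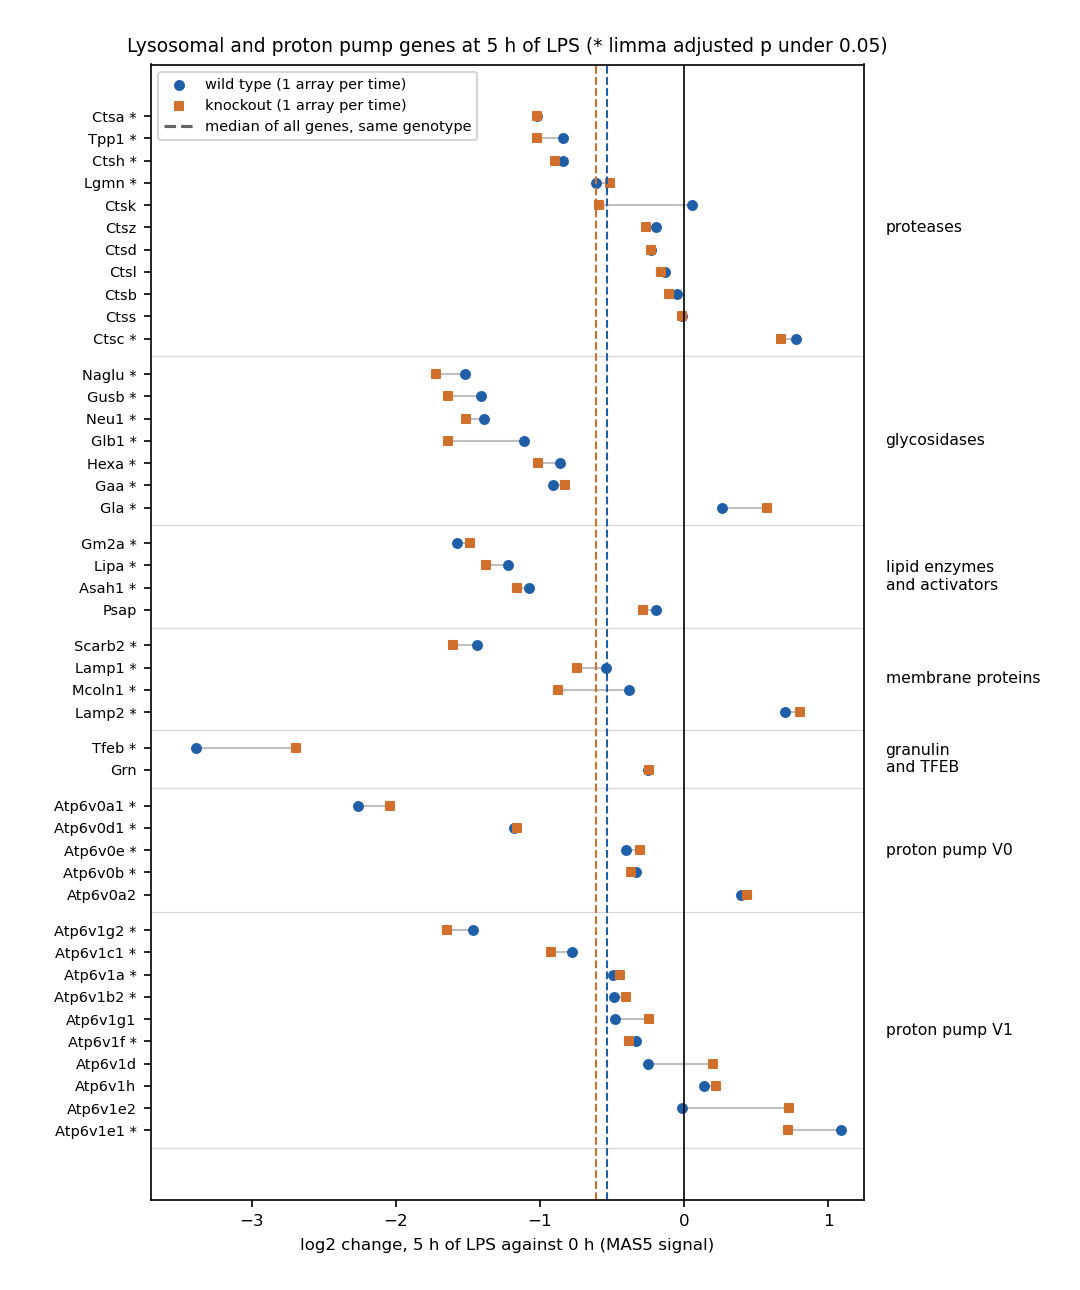
Change in signal of the 43 genes at 5 h of LPS against 0 h on the log2 scale (x axis), by class of gene, with wild type as circles and knockout as squares (1 array per time each) and dashed lines at the median of all genes in each genotype. Asterisks mark an adjusted p under 0.05; 34 genes lie below 0 and 6 above 0 in both genotypes.

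Tfeb, the transcription factor named above, read 519, 515 and 49.4 in wild-type cells and 515, 373 and 79.7 in knockout cells, in the order 0 h, 1 h and 5 h used throughout. Both 5 h signals lay far below the other 4 and did not overlap them. Tfeb fell by 3.04 (SE 0.30, adjusted p = 0.00156), or 8.23-fold, and this was the lowest of the 43 coefficients at 5 h. Its signal exceeded the array median on 5 of the 6 arrays, the exception being wild type at 5 h. Most of the fall came between 1 h and 5 h, at −3.38 in wild type and −2.23 in knockout. Granulin (Grn), a secreted and lysosomal glycoprotein grouped with it, read 13073, 11052 and 10996 in wild-type cells and 12201, 12490 and 10318 in knockout cells. Its 5 h signals were the lowest by a small margin, and its change of −0.25 (SE 0.13, adjusted p = 0.144) did not pass the test.

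The promoters of the genes were read for the E-box that TFEB and its relatives recognise, since Tfeb itself was among the genes measured. RefSeq promoter windows of GRCm38.p6, from 250 bases before to 50 after the start of the gene, were matched to 35 of the 43 genes. The core CACGTG, searched on both strands (the motif reads the same on each), occurred in 14 of the 35 (40.0%), in 12.5% of the 6189 kept genes with a window and in 8.09% of all 27025 genes with one. The longer TCACGTGA, every copy of which contains CACGTG, occurred in 7 of the 35, in 2.41% of the kept genes and in 1.12% of all. The same motif with G before it and C after it was in none of the 35 and in 0.824% of the kept genes. The 7 genes with TCACGTGA are shown with the sequence around it, together with Naglu, the glycosidase with the largest fall, and Lamp1, which had the most copies of the core. Capitals mark TCACGTGA where present and otherwise the core CACGTG, and sequences run 5′ to 3′ on the strand of the gene.
Ctsa, chr2:164833741-164833803, plus strand: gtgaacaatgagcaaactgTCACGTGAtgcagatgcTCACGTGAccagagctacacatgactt
Gla, chrX:134601174-134601252, minus strand: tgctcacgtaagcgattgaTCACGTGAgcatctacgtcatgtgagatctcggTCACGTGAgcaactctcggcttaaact
Atp6v0d1, chr8:105566042-105566087, minus strand: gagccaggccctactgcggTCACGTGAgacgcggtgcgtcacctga
Atp6v0e, chr17:26676379-26676424, plus strand: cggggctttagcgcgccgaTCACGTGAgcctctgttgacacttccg
Atp6v1a, chr16:44139365-44139410, minus strand: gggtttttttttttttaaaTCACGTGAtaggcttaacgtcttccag
Ctsd, chr7:142387900-142387945, minus strand: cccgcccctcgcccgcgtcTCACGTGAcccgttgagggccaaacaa
Mcoln1, chr8:3500428-3500499, plus strand: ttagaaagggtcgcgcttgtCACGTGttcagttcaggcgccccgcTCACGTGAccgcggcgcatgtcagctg
Lamp1, chr8:13159080-13159171, plus strand: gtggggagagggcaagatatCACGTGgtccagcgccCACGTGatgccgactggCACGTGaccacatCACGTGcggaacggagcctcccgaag
Naglu, chr11:101070001-101070046, plus strand: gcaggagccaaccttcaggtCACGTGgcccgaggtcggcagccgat

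The copies of the core lay close to the start in some of these genes and far from it in others. Those of Ctsa lay 12 bases before and 6 bases after the start, that of Atp6v0d1 3 bases before and that of Atp6v0e 4 bases after, whereas those of Gla lay 194 and 227 bases before it. The genes with and without the core overlapped in their change at 5 h. The 14 with CACGTG ranged from −1.62 to 0.42 with a median of −0.60, and 11 were called lower and 1 higher. The 21 without it ranged from −3.04 to 0.91 with a median of −0.36, and 11 were called lower and 3 higher. For the longer TCACGTGA the order of the medians was the other way, −0.47 in the 7 genes with it (5 lower, 1 higher) and −0.60 in the 28 without (17 lower, 3 higher). These counts stand against 54% lower and 19.5% higher in all genes. Ctsa and Gla, each with 2 copies of TCACGTGA, changed in opposite directions at 5 h. These matches describe letters in the reference sequence, and binding was not measured.

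**Figure D2:**
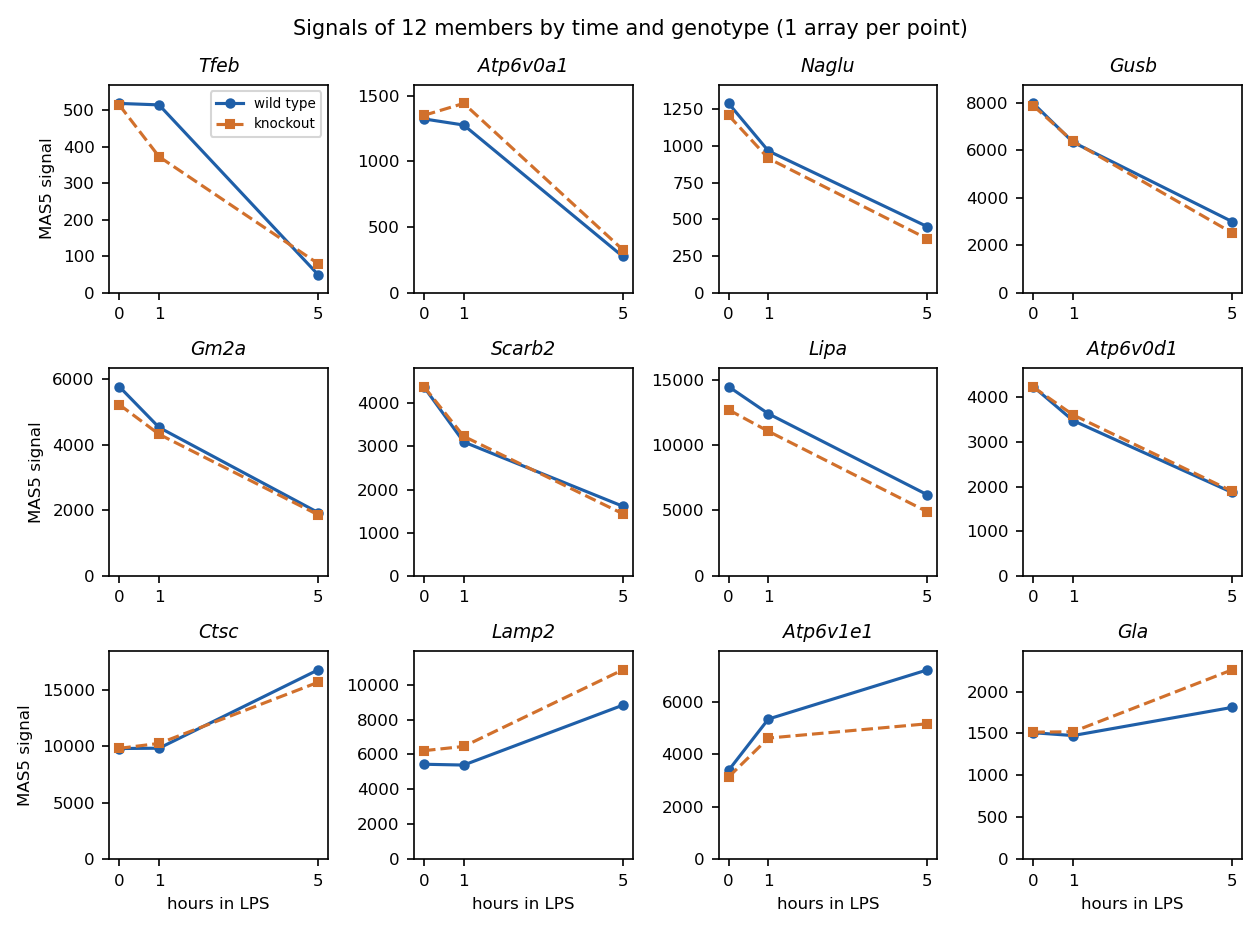
Deposited signal (y axis, linear, from 0) against hours in LPS for 12 genes, with wild type as circles and knockout as squares and 1 array per point. The upper 8 genes were lower at 5 h than at 0 h in both genotypes, Tfeb falling from 519 and 515 to 49.4 and 79.7, and the lower 4 were higher.

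Among the 7 glycosidases, which remove sugars from glycoproteins, glycolipids and glycosaminoglycans, 6 fell and 1 rose at 5 h, with a median change of −1.37. In all genes 54% fell and 19.5% rose. Naglu, which removes N-acetylglucosamine from heparan sulphate, read 1289.7, 966 and 449.5 in wild-type cells and 1208, 915 and 367 in knockout cells. It fell by 1.62 (SE 0.12, adjusted p = 0.000711), with every 5 h signal under every 0 h and 1 h signal. Gusb, the β-glucuronidase, read 7986, 6349.9 and 3000.1 in wild-type cells and 7888, 6386 and 2527 in knockout cells, and fell by 1.53 (SE 0.12, adjusted p = 0.000894). Its signals stepped down from each time to the next in both genotypes without overlap. Neu1, a sialidase, read 1193, 964 and 456 in wild-type cells and 1054, 1078 and 369.5 in knockout cells, and fell by 1.45 (SE 0.15, adjusted p = 0.00187). Its 0 h and 1 h signals overlapped, and both 5 h signals lay below them. Glb1, the β-galactosidase, read 1790.2, 1446 and 829.6 in wild-type cells and 1828, 1422 and 588 in knockout cells, and fell by 1.37 (SE 0.17, adjusted p = 0.00294). The times did not overlap, and the fall was 1.11 in wild type and 1.64 in knockout.

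Hexa, a subunit of β-hexosaminidase, fell by 0.94 (SE 0.11, adjusted p = 0.00239) from 12484 and 11975 at 0 h. Gaa, the acid α-glucosidase that degrades glycogen, read 869, 856 and 462 in wild-type cells and 728.5, 757 and 411 in knockout cells. Its 5 h signals were the lowest in both genotypes, its 1 h signals lay within the range at 0 h, and it fell by 0.87 (SE 0.10, adjusted p = 0.00243). Hexa and Gaa kept this direction but did not pass the test when arrays were centred on their medians. Gla, the α-galactosidase A, was the exception, at 1508, 1474 and 1810.3 in wild-type cells and 1515, 1519.8 and 2258 in knockout cells. Both 5 h signals exceeded the other 4, and Gla rose by 0.42 (SE 0.13, adjusted p = 0.0414). That call was lost with quantile normalization, without the filter on dim genes, with the mean of its probe sets, with the dimmer of them and on leaving out any single array other than wild type at 5 h.

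The enzymes and activators of lipid breakdown fell in 3 of 4 cases, against 54% of all genes, with a median of −1.21. Gm2a, the activator protein that presents ganglioside GM2 to β-hexosaminidase, read 5766, 4523 and 1931 in wild-type cells and 5219, 4316 and 1861 in knockout cells. It fell by 1.53 (SE 0.10, adjusted p = 0.000618), or 2.89-fold, and the times did not overlap. Lipa, the lysosomal acid lipase that frees cholesterol from its esters, read 14459, 12389 and 6194 in wild-type cells and 12687, 11048 and 4896 in knockout cells. Its 5 h signals were the lowest, and it fell by 1.30 (SE 0.11, adjusted p = 0.00104). Asah1, the acid ceramidase, read 7644, 6137 and 3620.4 in wild-type cells and 7472, 6210.3 and 3339.5 in knockout cells. Its signals stepped down at each time without overlap, and it fell by 1.12 (SE 0.10, adjusted p = 0.00135). Psap, the precursor of the saposins that activate sphingolipid hydrolases, was among the brightest of the genes, at 21990.2, 20231 and 19231 in wild-type cells and 19640.4, 20071 and 16160.1 in knockout cells. The 5 h signals were the lowest by a small margin, 0 h and 1 h overlapped, and the change of −0.24 (SE 0.12, adjusted p = 0.13) did not pass the test.

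Of the 11 proteases, 4 fell, 1 rose and 6 did not pass the test, with a median of −0.23, above the all-gene median. Most of the proteases had a mean signal over 10000, and brightness is taken up below. The shares in all genes were 54% lower and 19.5% higher. Ctsa, cathepsin A or protective protein, which binds and stabilises Neu1 and Glb1, read 8393, 6667 and 4131 in wild-type cells and 7339, 6450.0 and 3619 in knockout cells. The 5 h signals were below all others, and Ctsa fell by 1.02 (SE 0.11, adjusted p = 0.00181). The aminopeptidases Tpp1 and Ctsh fell by 0.93 (SE 0.12, adjusted p = 0.0029) and 0.87 (SE 0.10, adjusted p = 0.0024), and both kept the direction without passing the test after median centring. Legumain (Lgmn), an asparaginyl endopeptidase that processes cathepsins, fell by 0.56 (SE 0.10, adjusted p = 0.00891), close to the change of the median gene, and it read 0.07 after median centring and was not called without either array of 0 h. Ctsc, the dipeptidyl peptidase that activates granule serine proteases, went the other way, at 9784, 9811 and 16744 in wild-type cells and 9801, 10235 and 15645 in knockout cells. Its 5 h signals stood apart from the other 4, which lay close together. Ctsc rose by 0.72 (SE 0.11, adjusted p = 0.00458) and was the one gene of the 4 called higher in each of the 10 settings that used all 6 arrays. It has no second probe set, unlike the other genes called higher, so the settings that change the probe set could not alter its value.

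The 5 brightest cathepsins, Ctsb, Ctss, Ctsz, Ctsl and Ctsd, did not pass the test at 5 h. Ctsb, a cysteine protease, read 21988, 19914 and 21278 in wild-type cells and 19511, 20080 and 18154 in knockout cells, a change of −0.08 (SE 0.12, adjusted p = 0.586). Ctss, a cysteine protease that processes the MHC class II invariant chain, read 17301, 15500.0 and 17139 in wild-type cells and 15941, 15835 and 15760.4 in knockout cells, a change of −0.02 (SE 0.11, adjusted p = 0.909). Ctsz, a carboxypeptidase, read 15628, 14064 and 13689 in wild-type cells and 15065, 14319 and 12529 in knockout cells, a change of −0.23 (SE 0.11, adjusted p = 0.117). In Ctsb and Ctss the times overlapped, and in Ctsz the 5 h signals were the lowest by a small margin. The aspartyl protease Ctsd and the cysteine protease Ctsl also failed to pass, at −0.23 and −0.15. Relative to the median of each array these 5 went the other way, at 0.55 for Ctsb, 0.61 for Ctss, 0.40 for Ctsz, 0.40 for Ctsd and 0.48 for Ctsl. With limma's trended prior, at the deposited scale, Ctsz and Ctsd were called lower and the other cathepsins of these 5 were not. The other probe sets of Ctsz read higher at 5 h, at 0.07 and 0.48 in the mean change of both genotypes. Ctsk, the collagen-degrading cathepsin of osteoclasts, was dim, between 67.7 and 109, above the array median on 2 of 6 arrays, and its change of −0.27 (SE 0.26, adjusted p = 0.397) did not pass.

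The 4 membrane proteins all passed the test at 5 h, as did 73.6% of all genes, with 3 falling and 1 rising. Scarb2 (LIMP-2), the receptor that carries β-glucocerebrosidase to lysosomes, read 4377, 3104 and 1614 in wild-type cells and 4385, 3234 and 1440.3 in knockout cells. Its signals stepped down at each time without overlap, and it fell by 1.52 (SE 0.11, adjusted p = 0.0008). Lamp1, a heavily glycosylated protein of the lysosomal membrane, fell by 0.64 (SE 0.12, adjusted p = 0.00958) and stood at −0.01 after median centring, with the call also lost without either array of 0 h. Mcoln1 (TRPML1), the calcium channel of the lysosome, read 456, 507 and 349.8 in wild-type cells and 491, 508 and 268 in knockout cells, and fell by 0.63 (SE 0.16, adjusted p = 0.0241). Its 5 h signals were the lowest, but the call was lost with quantile normalization, without the filter on dim genes and without either 1 h array or either knockout array of 0 h and 5 h, and the sign turned, to 0.000866, with median centring. Lamp2, the related glycoprotein needed for fusion of autophagosomes with lysosomes, read 5437, 5391 and 8823 in wild-type cells and 6216, 6458 and 10848 in knockout cells. Both 5 h signals were above all others, and Lamp2 rose by 0.75 (SE 0.10, adjusted p = 0.00367), although 1 of its other probe sets read lower at 5 h.

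Of the 15 proton pump genes kept, 9 fell and 1 rose at 5 h while 5 did not pass the test, and their median of −0.36 was nearer 0 than that of all genes. For comparison, 54% of all genes fell and 19.5% rose. Subunits of 1 complex differed widely. In the V0 sector, Atp6v0a1, one of 4 alternative a subunits that line the proton path and set where the pump resides, read 1323, 1276 and 276 in wild-type cells and 1350.1, 1441 and 327 in knockout cells. The 5 h signals lay far below the others, while 0 h and 1 h overlapped. Atp6v0a1 fell by 2.15 (SE 0.11, adjusted p = 0.000426), or 4.45-fold, and the fall came after 1 h in both genotypes. Atp6v0d1, the d subunit that joins the V0 ring to the central stalk, read 4241, 3480.2 and 1869.5 in wild-type cells and 4229.6, 3609 and 1897 in knockout cells. It fell by 1.17 (SE 0.10, adjusted p = 0.00108), and the times did not overlap. The ring subunit Atp6v0b and the small subunit Atp6v0e each fell by 0.35 (SE 0.11 and 0.10, adjusted p = 0.0412 and 0.0342), and read 0.28 and 0.27 after median centring; both calls were lost on leaving out any single array. Atp6v0a2, another a subunit, read 163 to 184 at 0 h and 214 and 249.6 at 5 h, a change of 0.42 (SE 0.18, adjusted p = 0.098). It was called higher after quantile normalization (1.08) and median centring (1.05), but its other probe sets read lower at 5 h.

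In the V1 sector, the catalytic A subunit Atp6v1a fell by 0.47 (SE 0.10, adjusted p = 0.0147). Its partner Atp6v1b2, the B subunit, read 5928, 4342 and 4224 in wild-type cells and 4951, 4151 and 3737 in knockout cells, and fell by 0.45 (SE 0.11, adjusted p = 0.0215). Most of that step was taken by 1 h. Atp6v1f fell by 0.36 (SE 0.10, adjusted p = 0.036), and Atp6v1a, Atp6v1b2 and Atp6v1f read 0.16, 0.18 and 0.27 after median centring. The call of Atp6v1f was lost on leaving out any single array, that of Atp6v1b2 without any array of 0 h or 5 h and that of Atp6v1a without either array of 0 h. Atp6v1c1, the C subunit that holds V1 on V0, read 7439, 6444 and 4348 in wild-type cells and 7138, 7326 and 3772 in knockout cells. Its 5 h signals were the lowest, and it fell by 0.85 (SE 0.14, adjusted p = 0.00623). Atp6v1e1, a peripheral stalk subunit, rose, at 3384, 5338 and 7212 in wild-type cells and 3130.1, 4612 and 5157 in knockout cells. The 0 h signals were the lowest, those of 1 h and 5 h overlapped, and the rise at 5 h was 0.91 (SE 0.14, adjusted p = 0.00493). The other stalk subunit with a call, Atp6v1g2, was dim, at 119.5, 90.7 and 43.3 in wild-type cells and 135, 43.8 and 43.2 in knockout cells. It exceeded the array median only on the 2 arrays of 0 h, so the filter kept it through the time at which it was highest. A fall from 0 h is favoured by that filter, and its test carries little weight. Atp6v1g2 fell by 1.56 (SE 0.34, adjusted p = 0.015), a call lost with quantile normalization, median centring, without the filter on dim genes and without knockout at 0 h or either array of 5 h.

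The remaining V1 subunits did not pass the test at 5 h. They were Atp6v1d at −0.03 (adjusted p = 0.898), Atp6v1g1 at −0.36 (adjusted p = 0.0807), Atp6v1h at 0.18 (adjusted p = 0.176) and the E subunit isoform Atp6v1e2 at 0.36 (adjusted p = 0.184). Atp6v1e2 lay above the median only on the 2 arrays of 5 h. The pump genes outside the Atp6v names gave 3 falls and 1 rise, against 54% and 19.5% of all genes. The accessory subunit Atp6ap1 read 4964, 3849.5 and 2405 in wild-type cells and 4564, 3814 and 2297 in knockout cells, and fell by 1.02 (SE 0.10, adjusted p = 0.00163). Tcirg1, which encodes the a3 subunit of osteoclasts and phagocytes, read 2116, 2469.7 and 3567 in wild-type cells and 2139.8, 2440.1 and 3608 in knockout cells. It rose by 0.75 (SE 0.10, adjusted p = 0.00336), with no overlap between times. Among the a subunits, the a1 probe set was therefore lower and the a3 probe set higher at 5 h in both genotypes, and a4 was at or below 20.6 on all arrays.

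**Figure D3:**
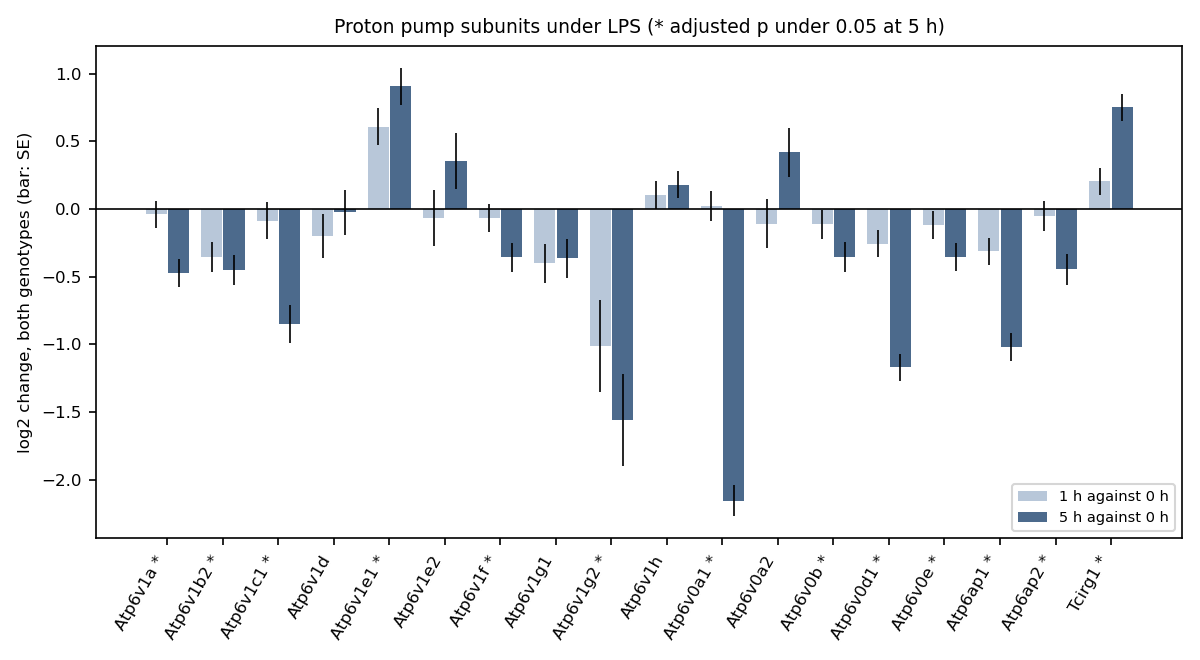
Coefficient of the additive model (y axis, log2 change against 0 h, bars show SE) at 1 h and at 5 h of LPS for the 15 kept proton pump genes and 3 further pump genes, Atp6ap1, Atp6ap2 and Tcirg1. At 5 h the bars run from −2.15 in Atp6v0a1 to 0.91 in Atp6v1e1, and asterisks mark an adjusted p under 0.05 at 5 h.

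In both genotypes 13 of the 43 genes were at least 2-fold lower at 5 h, against 30.4% of all genes, and none was 2-fold higher, against 10.6%. They were Tfeb, Atp6v0a1, Atp6v0d1, Atp6v1g2, Naglu, Gusb, Neu1, Glb1, Gm2a, Lipa, Asah1, Ctsa and Scarb2. Atp6v1g2 passed the filter only on its 0 h arrays, which favours a fall. All of the 13 except Atp6v1g2, that is 12 of the 26 genes called lower, were called lower in each of the 10 settings that used all 6 arrays. Tfeb, Atp6v0d1, Naglu, Glb1, Asah1 and Ctsa have no second probe set, so the settings that change the probe set could not alter their values. The changes at 5 h in wild type and in knockout had a Pearson correlation of 0.948 across the 43 genes and of 0.940 across all genes, and those at 1 h of 0.428 and 0.848. At 1 h the changes of the 43 genes had an SD of 0.24 in wild type and 0.31 in knockout, against 0.80 and 0.79 over all genes. A narrow range of changes lowers a correlation, so the values at 1 h cannot be compared directly. All these correlations are across genes of the same arrays, which are not independent replicates.

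At 1 h of LPS no gene of the 43 was called higher or lower (limma), against 5.51% and 5.96% of all genes (11.5% in either direction), and 8 of them had an unadjusted p under 0.05, against 32.9% of all genes. The median change was −0.11 against −0.18 for all genes. With limma's trended prior 10 were called lower and 1 higher. The largest rise was that of Atp6v1e1, at 0.61 (SE 0.14, adjusted p = 0.0677), which was called under median centring, with log2(signal + 50), with a filter on the mean signal and with the trended prior. Scarb2 stood at −0.47 (SE 0.11, adjusted p = 0.077) and Naglu at −0.41 (SE 0.12, adjusted p = 0.0999). The lowest coefficient, −1.01 in Atp6v1g2, came from −0.40 in wild type and −1.63 in knockout. Atp6v0a1, Tfeb in wild type, Gaa and Mcoln1 were near or above their 0 h signals at 1 h.

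Between the genotypes, no gene of the 43 was called higher or lower in knockout over the 3 times (limma), against 0.0133% of all genes. At an unadjusted p under 0.05 there were 2, Atp6v1e2 and Lamp2, against 8.43% of all genes, and their adjusted p were 0.547 and 0.586. The spread of knockout minus wild type was narrower in these genes than over all genes, with an SD of 0.21, 0.23 and 0.23 at 0 h, 1 h and 5 h against 0.35, 0.40 and 0.47. Of the 43 genes, 39 exceeded the array median on all 6 arrays. All genes kept were not matched to them in brightness, and the part of brightness in the narrower spread was not tested. The medians of knockout minus wild type were −0.07, −0.02 and −0.13 against 0.00, −0.02 and −0.06. In 18 of the 43 genes knockout was lower at all 3 times and in 3 it was higher, against 20.3% and 13.9% of all genes. These single-array differences carry no test.

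Few genes differed by 1.5-fold or more between the genotypes at any time. At 0 h 1 was higher (Ctsk, by 0.59) and 1 lower (Atp6v1e2), against 3.04% of all genes in each direction. At 1 h 2 were lower (Atp6v1g2, at −1.05, and Atp6v1e2), against 5.53%, and none was higher, against 3.44%. At 5 h 1 was higher (Tfeb, by 0.69), against 5.12%, and none was lower, against 9.24%. Atp6v1e2 read 113, 94.6 and 112 in wild-type cells and 54.4, 59.1 and 90.0 in knockout cells, so that every knockout signal lay under every wild-type one, at signals near the array medians. Tfeb was lower in knockout at 1 h (373 against 515) and higher at 5 h (79.7 against 49.4).

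Smaller differences included Glb1 (−0.50), Atp6v1e1 (−0.48) and Mcoln1 (−0.38) at 5 h, all lower in knockout. Atp6v1d was higher in knockout at 5 h by 0.39, at 2762 against 2112, after reading 2514 and 2403 at 0 h. At 0 h Atp6v1b2 was lower in knockout, at 4951 against 5928, and Gaa at 728 against 869. At 1 h Atp6v1c1 was higher in knockout, at 7326 against 6444, and so was Grn, at 12490.3 against 11052. By the probe set used, the 3 genes higher in knockout at all 3 times were Lamp2, Gla and Atp6v0a1. Of the 35 genes with a promoter window, Lamp2 and Gla were the 2 on the X chromosome. Lamp2 was higher by 0.19, 0.26 and 0.30 at 0 h, 1 h and 5 h and Gla by 0.01, 0.04 and 0.32, in arrays of female against male RNA. Their other probe sets were higher in knockout at 5 h but not at all times. In order of brightness, those of Lamp2 read −0.03, −0.01 and −0.03 at 0 h and 0.08, −0.31 and −0.11 at 1 h. At 5 h they read 0.17, 0.24 and 0.58. The other probe set of Gla read −0.11, 0.02 and 0.56 at 0 h, 1 h and 5 h. The part of sex in these values cannot be told apart from that of genotype.

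**Figure D4:**
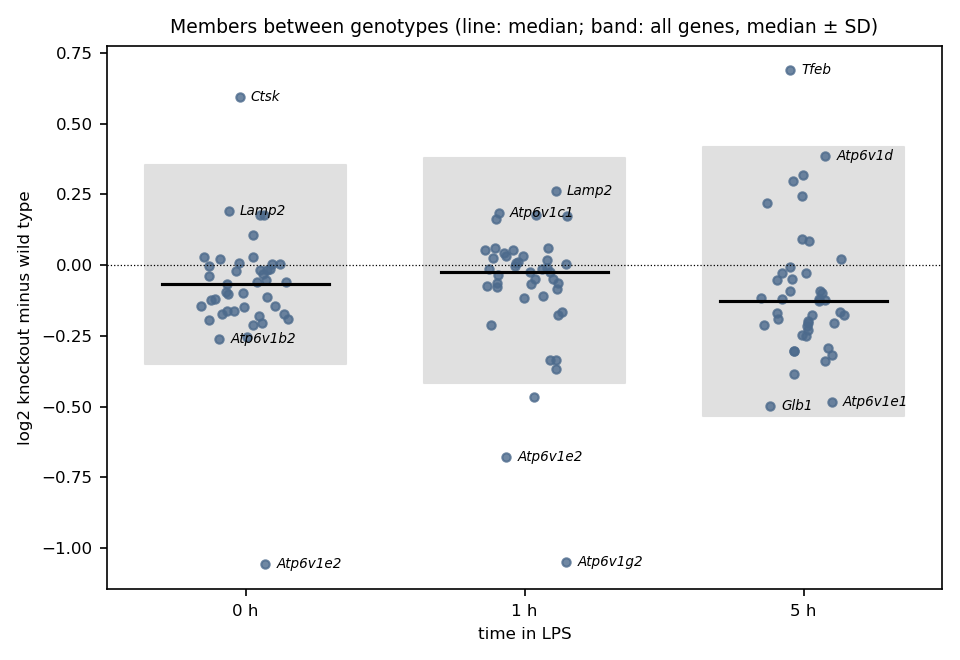
Knockout minus wild type on the log2 scale (y axis) for the 43 genes at 0 h, 1 h and 5 h, 1 array per genotype and time. Lines show the median of these genes and grey bands the median of all genes with 1 SD (0.35, 0.40 and 0.47) on each side; the named points include Atp6v1e2 at 0 h and Tfeb, 0.69 above 0 at 5 h.

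For 22 of the 43 genes more than 1 probe set exceeded the median of an array, and these probe sets did not always change alike. Their changes at 5 h differed by more than 1 on the log2 scale in 3 genes and had both signs in 6. Ctsb had 4 such probe sets, which ranged from −1.72 to −0.08 in the mean change of both genotypes. The dimmest of them read 9113, 6719 and 2747 in wild-type cells and 7813, 6871 and 2396 in knockout cells, clearly lower at 5 h, whereas the brightest kept its signal. With the mean of its probe sets Ctsb was called lower, at −0.74. Lamp2 had 4, of which the second brightest read 7145, 5731 and 5138 in wild-type cells and 6976, 6075 and 5783 in knockout cells, a change of −0.37 where the brightest gave 0.75. With the mean of its probe sets Lamp2 stood at 0.29 and was not called. Lipa had 3, with changes of −1.30, −1.48 and −1.98 in order of brightness. In Atp6v0a2 the brightest of 3 gave 0.42 and the others −0.64 and −1.16.

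The size of the change also went with brightness. The 11 genes with a mean signal over 10000 had a median change of −0.23 at 5 h, with 3 called lower and 1, Lipa, 2-fold lower in both genotypes. They were the proteases Ctsb, Ctsc, Ctsd, Ctsl, Ctss, Ctsz and Lgmn, together with Psap, Lipa, Lamp1 and Grn. No glycosidase or pump gene was among them. Class and brightness therefore overlapped, and the part of brightness in the differences between classes was not tested. The other 32 had a median of −0.86, with 23 called lower, against 54% of all genes, and 12 2-fold lower. Over all 123 genes with a mean signal over 10000 the median was −0.09. The highest signal on any array was 25581, and whether the scanner's range limited the brightest probe sets was not tested.

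**Figure D5:**
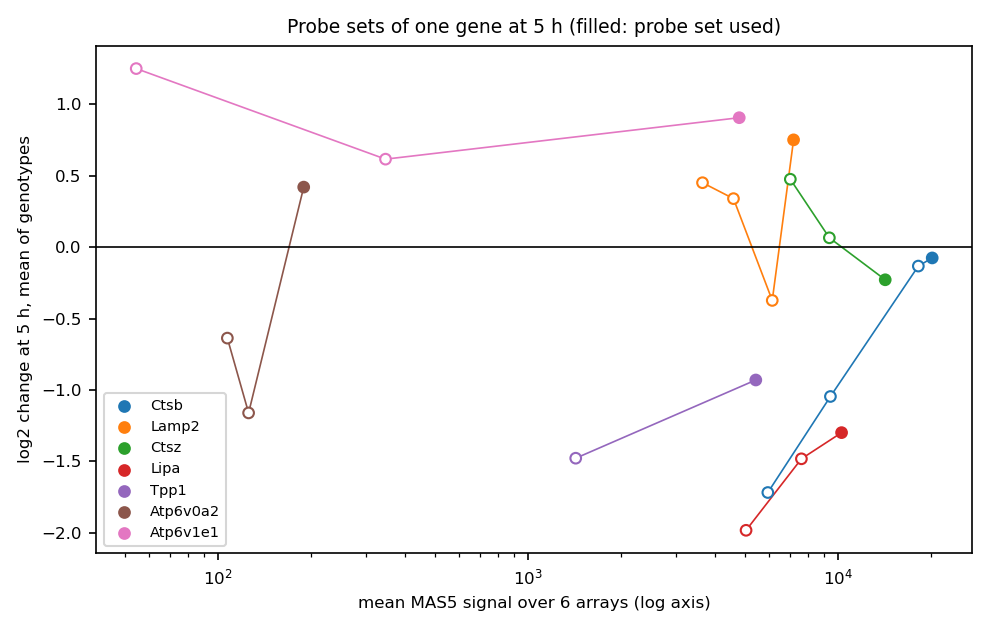
Mean change at 5 h over both genotypes (y axis, log2) against mean signal over the 6 arrays (x axis, log scale) for the probe sets of 7 genes, with lines joining the probe sets of 1 gene and filled points for the probe set used. In Ctsb the points run from −1.72 at the dimmest to −0.08 at the brightest, and in Lamp2 they lie on both sides of 0.

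Other genes of the lysosome, from 7 further lists, were measured on the same arrays, and 92 of them were kept. At 5 h 57 fell and 14 rose, while 21 did not pass the test and the median was −0.73, against the 54% and 19.5% of all genes called. Of 25 other lysosomal hydrolases, 20 fell and 2 rose. Sgsh, the heparan sulphamidase that acts in the same pathway as Naglu, had the largest fall, from 784 and 793 at 0 h to 50.3 and 28.2 at 5 h, a change of −4.39 (SE 0.26, adjusted p = 0.000508). Acp5, the tartrate-resistant acid phosphatase, had the larger rise, of 1.09 (SE 0.27, adjusted p = 0.0231). Of 15 other membrane proteins and transporters, 9 fell and 1 rose. The fall was largest in Ctns, the cystine exporter, at −2.82 (SE 0.11, adjusted p = 0.000332), and the rise was in the chloride-proton exchanger Clcn7, at 1.00 (SE 0.24, adjusted p = 0.0198). At 1 h Ctns, Slc29a3 and Tmem192 of this list were called lower.

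Among 11 genes that sort enzymes to the lysosome, 5 fell and 4 rose, against 54% and 19.5% of all genes. Gga2, an adaptor of mannose 6-phosphate receptors, was lowest at −2.75 (SE 0.15, adjusted p = 0.000432), and Gnptab, whose product makes the mannose 6-phosphate tag, was highest at 1.09 (SE 0.12, adjusted p = 0.00218). Of 19 autophagy genes, 12 fell and 2 rose, from −3.34 in Gabarapl1 (SE 0.17, adjusted p = 0.000413) to 0.99 in Atg16l1 (SE 0.11, adjusted p = 0.00194). At 1 h 2 of this list were called lower, Atg16l1 at −1.17 (SE 0.11, adjusted p = 0.0102), opposite to its change at 5 h, and Atg12 at −1.06 (SE 0.14, adjusted p = 0.0223). Of 4 cathepsin inhibitors, Cst3 (cystatin C) fell by 0.35 (SE 0.10, adjusted p = 0.0359). Cst7 (cystatin F), an inhibitor that acts on Ctsc, read 46.9, 90.8 and 1699 in wild-type cells and 36.9, 34.2 and 701 in knockout cells. It rose by 4.71 (SE 0.30, adjusted p = 0.000578), with the 5 h signals far above the rest. Cst7 exceeded the array median only at 5 h, so the filter kept it through the time at which it was highest. A rise from 0 h is favoured by that filter, and its test carries little weight.

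The relatives and regulators of TFEB were on a list of 14 genes, of which 7 fell and 3 rose at 5 h, against 54% and 19.5% of all genes. Tfec, a factor of the same family expressed in macrophages, read 602, 5016 and 2637 in wild-type cells and 607, 3045 and 2145 in knockout cells. Its 1 h signals were the highest, and it rose by 2.69 at 1 h (SE 0.21, adjusted p = 0.00679) and by 1.98 at 5 h (SE 0.21, adjusted p = 0.00176), while Tfeb fell at 5 h. Mitf, another member, rose by 0.45 at 5 h (SE 0.12, adjusted p = 0.0288). Flcn (folliculin), which acts with mTORC1 to hold TFEB in the cytoplasm, read 1136, 396 and 215 in wild-type cells and 1194, 527 and 192 in knockout cells. It fell by 1.35 at 1 h (SE 0.17, adjusted p = 0.0222) and changed by −2.52 at 5 h (SE 0.17, adjusted p = 0.000668), and the times did not overlap. Tsc1, an inhibitor of mTORC1 signalling, was also called lower at 1 h, at −0.69 (SE 0.13, adjusted p = 0.0466).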

How the data were processed

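RNA of 6 samples was labelled with biotin and hybridised to 1 Affymetrix Mouse Genome 430A 2.0 array per genotype and time. The authors deposited signal intensity on a linear scale for 22690 probe sets, computed with MAS5 per the submitters' processing notes; version and scaling target: not given in the sources used here. Of these probe sets, 20393 have 1 gene symbol in the platform annotation, 691 several and 1606 none. Signals were used at the deposited scale, raised to a floor of 18.2 (the 25th percentile of all values) and log2-transformed.

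Each gene was represented by its single-symbol probe set with the highest mean and kept as described. Of 12394 genes, 7501 were kept. Changes were fitted with limma 3.58.1 in R 4.3.3 (lmFit and eBayes, additive genotype and time, 2 residual and 2.18 prior degrees of freedom) and called under 0.05 after Benjamini-Hochberg adjustment over all genes. The spread is that between 2 genotypes and does not cover animals, which limits the precision together with the number of arrays. The fit was checked on simulated data. Counts of 2-fold or 1.5-fold differences between 2 arrays carry no test.

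The genes and lists were chosen with earlier results of these data known. Genes given in full are Tfeb, those called at 1 h, those called and 2-fold changed the same way in both genotypes at 5 h, the 4 brightest and the 3 with the largest genotype difference each way at each time. Of each further list the largest called rise and fall at 5 h are named. Ctsc, Mitf, Slc29a3, Tmem192, Atg12, Tsc1 and the genes whose sequences are shown were chosen after their values were seen; other genes are given to account for every member. Promoter windows come from RefSeq (GRCm38.p6). Alternatives were array scale, floor, pseudocount, filter, probe set, moderation and leaving out each array; the dimmest probe set of each gene was added after seeing the data.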

Additional observations from a re-analysis of the deposited data

How the results depend on the processing

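With each array left out in turn, 17 to 22 of the genes were called lower at 5 h and 3 to 4 higher, and the median change minus that of all genes was 0.0394 to 0.12 at 5 h; the lowest values of the lower calls and of the median came without knockout at 0 h. Genes called higher at 5 h numbered 14 with median centring, 2 with the mean of all probe sets and 2 with the dimmest probe set, and those called lower numbered 12 with median centring. At 1 h 1 gene was called higher with median centring, with log2(signal + 50), with the filter on the mean signal and with the trended prior, and 1 lower with log2(signal + 50) and 10 with the trended prior. The median minus that of all genes, 0.10 at 5 h, was −0.42 with quantile normalization, 0.0228 with log2(signal + 50), −0.10 without the filter, −0.0159 with the mean of all probe sets and −0.0812 with the dimmest; at 1 h it was −0.00899 with quantile normalization. Median centring turned the sign at 5 h of Ctsb (0.55), Ctsd (0.40), Ctsk (0.36), Ctsl (0.48), Ctss (0.61), Ctsz (0.40), Lgmn (0.0663), Psap (0.39), Mcoln1 (0.000866), Grn (0.38), Atp6v0b (0.28), Atp6v0e (0.27), Atp6v1a (0.16), Atp6v1b2 (0.18), Atp6v1d (0.60), Atp6v1f (0.27) and Atp6v1g1 (0.27). This follows from its construction, since it sets the all-gene median of −0.57 to about 0. The dimmest probe set turned Ctsz (0.48), Atp6v0a2 (−0.64), Atp6v0b (0.13), Atp6v1b2 (0.0626) and Atp6v1d (0.16), the mean of all probe sets turned Ctsz (0.10), Atp6v0a2 (−0.46) and Atp6v1d (0.11), and quantile normalization turned Ctsk (0.47). With 1 array left out, values that were not called as reported took both signs in Ctsk (−0.67 to 0.13, positive without knockout 0 h), Ctss (−0.0537 to 0.0237, positive at 0.0215 without wild type 0 h and at 0.0237 without knockout 5 h), Atp6v1d (−0.26 to 0.21, positive at 0.0828 without wild type 0 h and at 0.21 without wild type 5 h) and, at 1 h, Tfeb (−0.64 to 0.16, positive without knockout 1 h). The causes of the other differences were not tested. Over all single genes and settings the direction and the side of the threshold were kept in 644 cases, the direction was kept but a call lost in 62 and gained in 22, and the sign turned in 32. No gene was called between the genotypes in any setting. Signals near the array median, as in Ctsk, Atp6v1e2 and Atp6v1g2, limit what can be read from those genes.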
